A study of Mus musculus with 68 samples.

Results

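Genes that mark striatal projection neurons and neurons of the olfactory bulb were followed through 68 RNA-seq libraries of mouse prefrontal cortex, a region that lies beside both of these tissues. The 30 genes were chosen by name, 14 for the striatum and 16 for the olfactory bulb, and were found by symbol among the 18088 genes of the deposited table. Of these, 29 were found, 13 striatal and 16 olfactory; Drd3, a dopamine receptor gene, was not analysed here. All 29 passed the filter on low values. The animals were C57BL/6J mice at postnatal day 25 that were labelled wild type (WT) or heterozygous (HT) for Adnp, which encodes a regulator of chromatin. They had been given vehicle, fluoxetine (a serotonin reuptake inhibitor) or lithium (a mood stabilizer) in their mother's milk from day 3 to day 24. The vehicle groups numbered 8 HT females, 8 HT males, 8 WT females and 7 WT males. Fluoxetine had 5 libraries in each of its 4 groups, and the lithium groups numbered 4 HT females, 5 HT males, 5 WT females and 3 WT males. The labels do not say what the mutant Adnp allele is, how the tissue block was cut, or which pups shared a mother or a litter. They number replicates without stating that each is a separate animal, so a p-value here measures the spread between these samples.

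Striatal projection neurons are the GABAergic output cells of the caudate, putamen and accumbens. One class carries the dopamine receptor Drd1 with the neuropeptide substance P (Tac1), and the other carries Drd2 with the adenosine receptor Adora2a and enkephalin (Penk); both use DARPP-32 (Ppp1r1b) to integrate dopamine and glutamate signals. The olfactory bulb receives axons of olfactory sensory neurons in its glomeruli, where mitral and tufted cells, which are glutamatergic, and periglomerular interneurons, some of them dopaminergic, meet them. New bulb interneurons keep arriving after birth along the rostral migratory stream.

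Promoter sequence was available from RefSeq (GRCm38.p6) for 23 of the 29 genes, in 28 windows of the 250 bases before a transcription start. These were searched on both strands for 6 motifs, of which the first 6 letters of the cAMP response element, TGACGT, are shown because this element is well known in the promoter of Th, the gene of tyrosine hydroxylase. Those letters stood in the windows of Th, Gpr6 and Isl1, and 6.47% of all 32851 windows hold them. In Th and Gpr6 a match on each strand overlapped to form the full palindrome, from 45 to 38 bases before the start in Th and from 78 to 71 in Gpr6. Th also held 1 match to the AP-1 motif TGANTCA, found in 6.75% of all windows. The matches are capitalised in the 3 windows below, each written 5′ to 3′ on the strand of the gene.
Th promoter, chr7:142899996-142900245, minus strand: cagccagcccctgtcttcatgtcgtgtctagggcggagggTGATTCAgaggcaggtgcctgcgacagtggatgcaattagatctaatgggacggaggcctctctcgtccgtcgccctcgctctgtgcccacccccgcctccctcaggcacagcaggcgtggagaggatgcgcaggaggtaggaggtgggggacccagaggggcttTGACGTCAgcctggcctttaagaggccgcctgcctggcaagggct
Gpr6 promoter, chr10:41072291-41072540, minus strand: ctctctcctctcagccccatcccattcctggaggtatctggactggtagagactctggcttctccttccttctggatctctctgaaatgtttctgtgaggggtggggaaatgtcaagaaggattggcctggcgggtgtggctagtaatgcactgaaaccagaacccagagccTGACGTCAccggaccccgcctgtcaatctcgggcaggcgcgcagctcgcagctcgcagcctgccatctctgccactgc
Isl1 promoter, chr13:116309689-116309938, minus strand: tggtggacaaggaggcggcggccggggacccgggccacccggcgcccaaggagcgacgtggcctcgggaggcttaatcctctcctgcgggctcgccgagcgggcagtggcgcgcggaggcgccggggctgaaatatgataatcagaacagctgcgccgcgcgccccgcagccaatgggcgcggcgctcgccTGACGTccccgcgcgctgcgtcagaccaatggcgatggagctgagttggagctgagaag
Scgn was the only other gene with an AP-1 match. The nuclear receptor motif AGGTCA (14% of windows) was found in Ms4a15, Sp8 and Trh, and the homeodomain motif TAATTA (4.84%) in Tac1, Slc17a6 and Sp8. The T-box motif TCACACC (3.33%) was found in Nrn1l, and TATAAA (12.4%) in Rgs9 and Sp8. No motif was held by more than 3 of the 23 genes.

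Recovered reads numbered from 22.4M in the shallowest library up to 37.5M in the deepest (median 30.7M, where M is mega). The Adnp level did not fall in HT: group means were 1856 to 2373 normalised reads in the 6 HT groups and 1485 to 1996 in the 6 WT groups, so its RNA gives no check of that label, and HT below means labelled HT. For the cortical gene Tbr1, the lowest library read 1583 normalised reads. Levels of 361 pseudogenes divided the libraries into 3 sets that no label names. The first set had 28 libraries, all of the fluoxetine and 8 HT vehicle libraries. The second had 28, all of the lithium and 11 vehicle libraries, and the third had 12, with 10 WT and 2 HT vehicle libraries. Among vehicle libraries the set went with the replicate number: numbers 6 to 8 lay in the second set and lower numbers in the others. Because all libraries of a drug lay in 1 set, the drug results are also given within a set where a set holds both sides. Genotype under vehicle overlaps with set as well, because vehicle libraries of the first set were all HT and those of the third mostly WT. That comparison is also given within a set. On the striatal markers themselves 13 libraries stood apart, by more than 3 scaled median absolute deviations. They were HT fluoxetine females 2 and 5, HT lithium females 1, 2 and 4, HT lithium male 3, HT vehicle females 2 and 5, HT vehicle male 7, WT fluoxetine female 3, WT fluoxetine male 2, WT lithium female 5 and WT vehicle male 6. None stood apart on the olfactory markers by that measure. It could not pick out libraries rich in bulb genes, because 1 scaled deviation was 2.21. The olfactory score, defined below, ran only from -2.51 to 3.22. Values below are normalised reads: reads of a gene divided by 1 size factor of the library.

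The dopamine receptor Drd2 (chromosome 9, 49340627 to 49408177, GRCm38, plus strand) was the striatal gene with the widest range among those detected in every library. Its value ran from 8.06 in WT vehicle male 2 to 668 in WT vehicle male 6, a ratio of 82.9 between libraries of the same genotype, sex and treatment. In the 7 WT vehicle males the median was 27.1, and 5 of the 7 lay at 32.2 or below. The other 2 read 264 and 668, so the group fell into a low part and a high part with a wide gap. In this group the split followed the pseudogene sets. The 2 high libraries, males 6 and 7, lay in the set that holds all lithium libraries, and the 5 low ones in the set of 12. In some other groups a split lay inside 1 set. The HT fluoxetine females, all in the first set, read 21.5, 32.0, 72.7, 343 and 439, again low in some libraries and high in others. The HT fluoxetine males read 22.1, 25.2, 32.6, 33.8 and 37.9, with no high library. The HT lithium females, 53.2, 320, 438 and 560, had 3 high libraries and 1 low one. Outside the HT fluoxetine males, the highest library of each of the 11 groups read 182 or more.

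The other genes of the Drd2 class followed the same libraries. Adora2a ran from 63.5 to 984, with its highest value in HT vehicle female 5. Gpr6, an orphan receptor gene of the indirect pathway, ran from 24.1 to 283. Penk, the enkephalin precursor, ran from 832 to 5070. In the 7 WT vehicle males, Adora2a was at 98.4 or below in 5 and at 481 and 756 in the other 2. Genes of the Drd1 class were high in the same libraries. Drd1 ran from 95.1 to 881, and in the WT vehicle males it read 881 and 455 in males 6 and 7, the libraries with the most Drd2, and 233 or less in the others. Tac1 ran from 319 to 1240. Isl1, a transcription factor gene of developing direct pathway neurons and of cholinergic neurons, was at 0 reads in 21 of 68 libraries and reached 64.2 in HT vehicle male 7, at least 26.0-fold above the floor of 3 reads in a library. Among genes shared by both classes, Ppp1r1b (chromosome 11, 98348404 to 98357796, plus strand) ran from 964 to 6822. Rgs9, which speeds the end of dopamine receptor signalling, ran from 206 to 2098, and Pde10a, the striatal cyclic nucleotide phosphodiesterase, from 1217 to 6309. The retinoic acid receptor gene Rarb ran from 142 to 635, and Syndig1l, a striatum-enriched membrane protein gene, from 43.6 to 651. The narrowest range was that of Adcy5, the main striatal adenylyl cyclase, at 3601 to 9180, a ratio of 2.55.

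The olfactory genes spread more widely. Eomes (chromosome 9, 118478212 to 118486132, plus strand), a T-box transcription factor gene of mitral and tufted cells, ran from 0.894 (1 read, WT vehicle male 7) to 2129 in WT vehicle male 5. The 7 WT vehicle males read 0.89, 3.1, 4.2, 744, 1197, 1347 and 2129, so 3 libraries were near 0 and 4 were above 700. The WT fluoxetine males split in the same way, with 8.0, 11.8, 12.2, 655 and 1073. In WT lithium females, by contrast, the values were 2.7, 34.2, 39.5, 49.5 and 69.8, and none was high. Tbx21, a second T-box gene of the same cells, ran from 0 to 574, at least 218-fold above the floor of 3 reads. Cdhr1, a cadherin-related gene of mitral and tufted cells, ran from 92.1 to 9520, a ratio of 103. Doc2g, another gene of these cells, ran from 41.4 to 7092, a ratio of 171.

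Among the interneuron genes, Th, which makes the dopamine of periglomerular cells, ran from 32.2 to 2664, a ratio of 82.7. Calb2, the gene of the calcium-binding protein calretinin, ran from 303 to 8481. Secretagogin, another calcium-binding protein (Scgn), ran from 2.44 (3 reads) to 585. The transcription factor gene Sp8, needed for bulb interneurons, ran from 47.4 to 1801. Trh, the precursor of thyrotropin-releasing hormone, ran from 22.7 to 826. Omp and S100a5 are genes of mature olfactory sensory neurons, whose cell bodies lie in the nasal epithelium and only their axons in the bulb. Omp ran from 2.44 (3 reads) to 795, and S100a5 was at 0 reads in 30 of 68 libraries and reached 465, at least 153-fold above the floor. Shisa3 ran from 6.97 to 1465 and Ms4a15 from 0 to 1498, the latter at least 529-fold above the floor. The narrowest ranges among the olfactory genes were those of Slc17a6 (a ratio of 2.81), Reln (3.81) and Nrn1l (6.02). Reln, made by mitral cells and also by cortical interneurons, ran from 1699 to 6464. The vesicular glutamate transporter gene of mitral and thalamic neurons, Slc17a6 (chromosome 7, 51622006 to 51671119, plus strand) ran from 375 to 1054, and Nrn1l from 3.32 to 19.96.

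**Figure D1:**
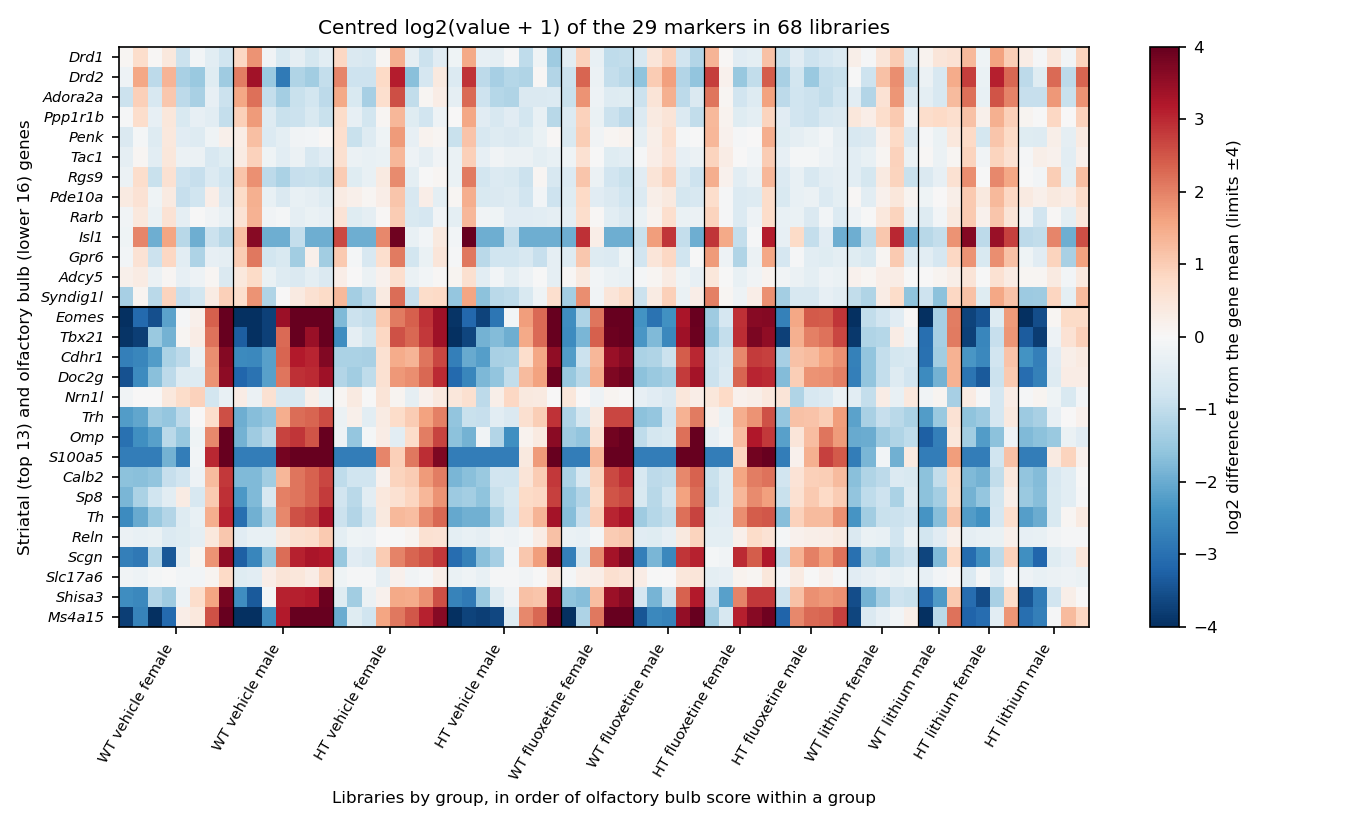
Each column is 1 of 68 libraries and each row 1 of the 29 genes; colour gives the log2 difference of log2(value + 1) from the gene's mean, limited to ±4. Columns are ordered by olfactory score within each of the 12 groups, and rows of 1 tissue, apart from Nrn1l, mostly change colour together from library to library.

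Spread within groups was wider than for most genes. The median within-group SD of log2(value + 1) was 1.99 over the 16 olfactory genes and 0.73 over the 13 striatal genes, against 0.17 over all 17922 genes tested. Ms4a15 (SD 3.18), S100a5 (3.09), Eomes (3.01) and Tbx21 (2.85) were among the 50 genes with the highest SD of all tested, and 9 olfactory genes were among the 100 highest. Of the striatal genes, 5 were among the 500 highest, led by Isl1 (1.95) and Drd2 (1.54). The 12 groups accounted for a median of 20.8% of the variance of the striatal genes and 18.7% of the olfactory genes, and for 27.2% of the variance of a gene tested (median). Fitting 12 group means takes up part of the variance even of a gene that does not differ between groups, so these shares are not group effects alone. In bulk tissue, fewer cells of a type and less RNA per cell cannot be told apart.

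Within each tissue the genes varied together from library to library. The following correlations are Pearson's r of values centred within the 12 groups over 68 libraries, given as a description; all genes share the libraries. Each striatal gene correlated with the mean of the other 12 at 0.76 (Syndig1l) to 0.98 (Rgs9), and the 78 striatal pairs ranged from 0.52 to 0.97 with a median of 0.87. Each olfactory gene but 1 correlated with the mean of the other 15 at 0.79 (Slc17a6) to 0.99 (Th). The exception was Nrn1l, at -0.21. Without Nrn1l the 105 olfactory pairs ranged from 0.745 to 0.99, with a median of 0.95. Genes of mitral cells, interneurons and sensory axons had similar values: Omp correlated with the other olfactory genes at 0.93, Eomes at 0.98 and Calb2 at 0.99.

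**Figure D2:**
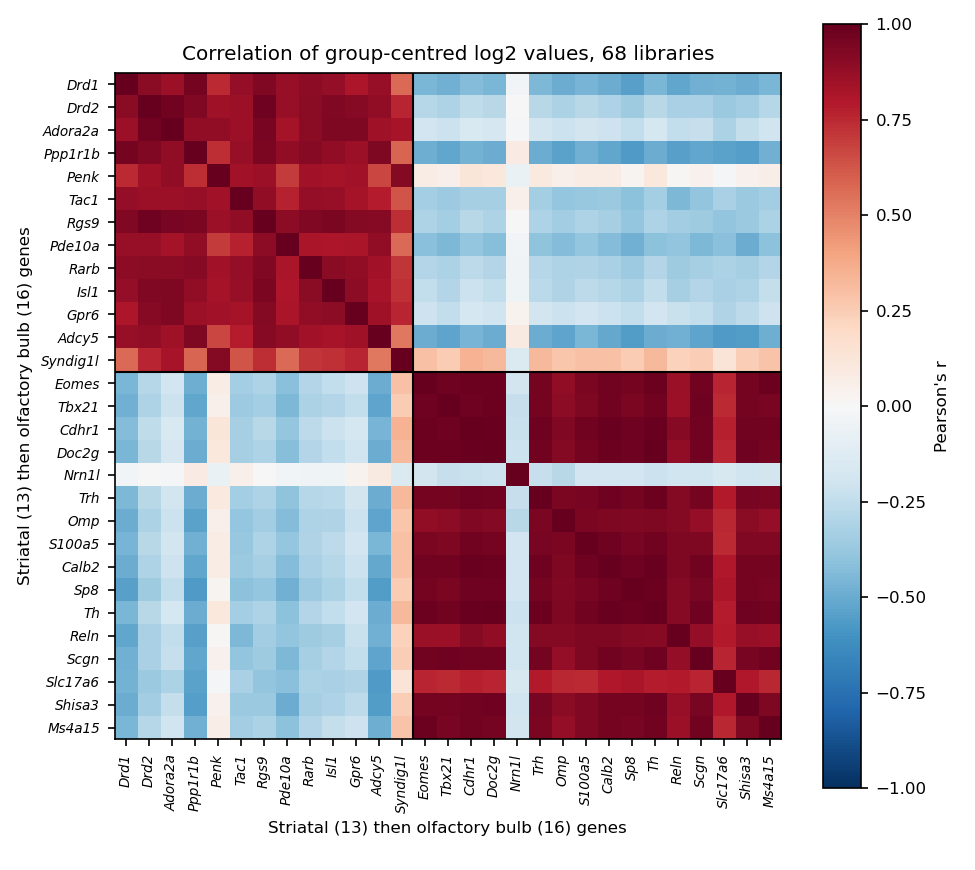
Pearson's r of group-centred log2(value + 1) over 68 libraries for each pair of the 29 genes, on a scale from -1 to 1. Both tissues form a block of high r (medians 0.87 and 0.95), Nrn1l is outside its block, and pairs across the tissues have a median of -0.31.

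A score per library was taken as the mean of the centred log2 values of the genes of each tissue. The striatal score ran from -0.88 to 1.88 and the olfactory score from -2.51 to 3.22. Their r with log2 reads was -0.0092 and -0.014 (group-centred, n = 68). Across tissues the relation was weak and negative. Of 208 pairs of a striatal and an olfactory gene, 174 had an r below 0, the median was -0.31 and the highest 0.35. The scores correlated at -0.27 within groups, and at -0.18 without the 2 libraries with the most extreme striatal score. Penk (0.07) and Syndig1l (0.29) were the striatal genes with a positive r with the olfactory score. Both scores were above 0 in 7 libraries, the striatal score alone in 16, the olfactory score alone in 24, and neither in 21.

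**Figure D3:**
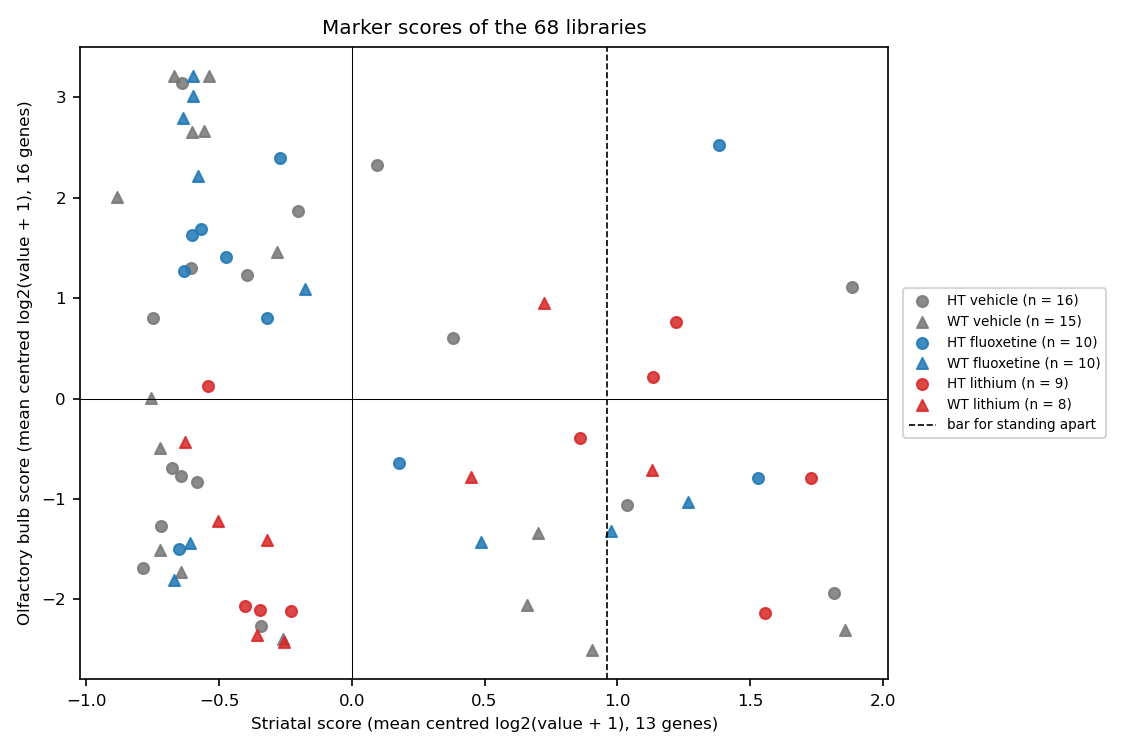
Olfactory bulb score against striatal score, both as mean centred log2(value + 1), with 1 point per library, colour for treatment and shape for genotype; the dashed line is the bar of 0.96 for standing apart on the striatal score. Of the 23 libraries above 0 on the striatal score, 7 are also above 0 on the olfactory score.

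By group, the striatal score had its lowest mean (-0.54) in HT fluoxetine males, where 0 of 5 libraries were above 0 (-0.65, -0.63, -0.60, -0.47 and -0.32). Its median in HT vehicle males was lower, at -0.64 against -0.60. The highest mean (1.07) and median (1.39) were those of HT lithium females, where 3 of 4 were above 0 (-0.23, 1.22, 1.56 and 1.73). In HT vehicle males, 7 of 8 lay between -0.79 and -0.34, and male 7 stood at 1.82. Over all groups, 15 of 35 female and 8 of 33 male libraries were above 0. The olfactory score was above 0 in 12 of 20 fluoxetine, 15 of 31 vehicle and 4 of 17 lithium libraries, with medians of 1.18, -0.50 and -0.79. In WT lithium females all 5 were below 0 (-2.35, -1.21, -0.79, -0.72 and -0.43). Most groups overlapped on both scores: WT vehicle males alone spanned -2.51 to 3.21 on the olfactory score.

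**Figure D4:**
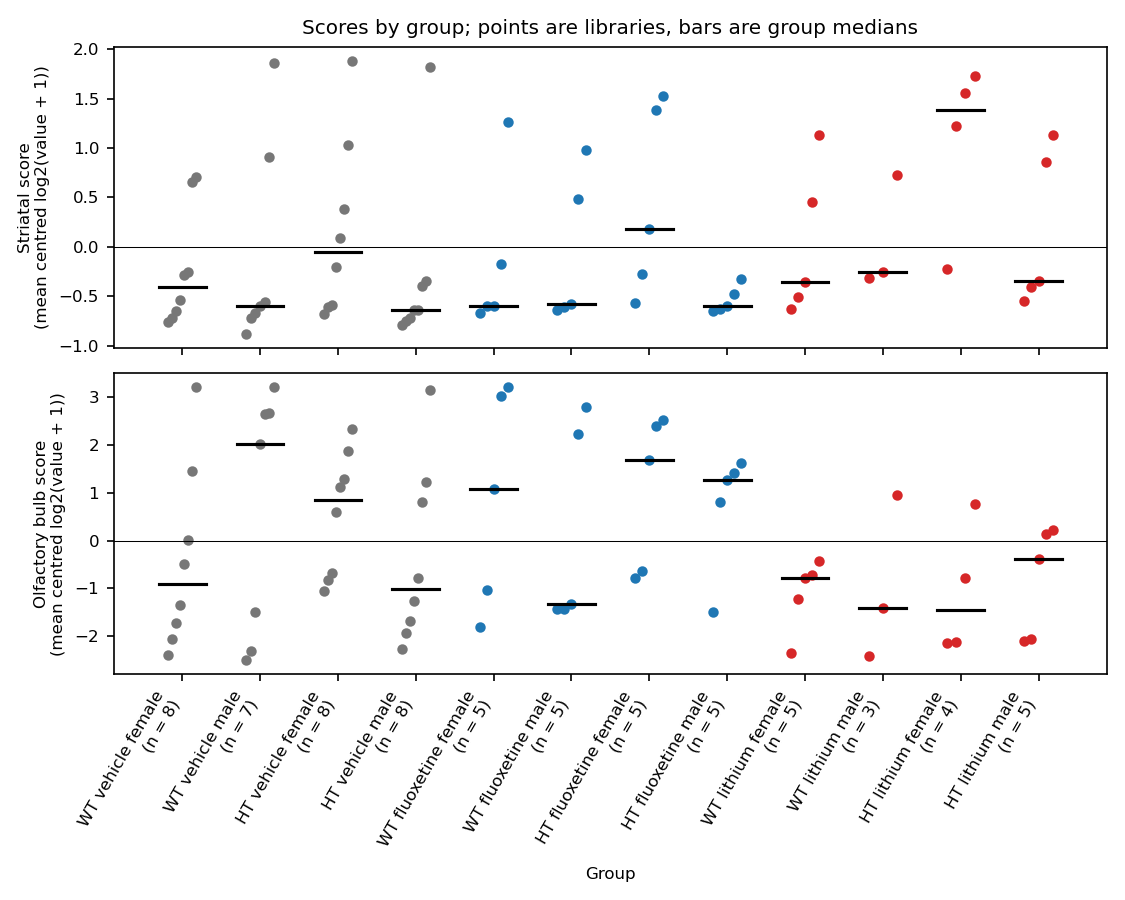
Striatal score (upper) and olfactory bulb score (lower) of each library, in units of mean centred log2(value + 1), for the 12 groups; bars are group medians. High and low libraries occur within most groups, HT fluoxetine males have no striatal score above 0 and WT lithium females no olfactory score above 0.

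All 10 comparisons were fitted with limma over the whole table, and a gene was called at an adjusted p under 0.05. Of the 29 markers, 2 were called, both in lithium against vehicle in WT. In that comparison limma called 36.1% of all genes tested, 18.6% higher and 17.5% lower, so its count of 2 of 29 (1 higher, 1 lower) is below the background. On recovered reads edgeR called 9 of 29 and DESeq2 15, all lower, where they called 18.9% and 19.7% of all genes lower. Both of these counts lie above their shares, but the genes of a tissue vary together. In the other 9 comparisons limma called 0 of 29 markers, and edgeR and DESeq2 on recovered reads also called 0. The background called in those was 15% for genotype under vehicle, 1.98% for genotype under fluoxetine and 2.51% for genotype under lithium. It was 1.22% for fluoxetine in HT, 5.43% for fluoxetine in WT, 1.52% for lithium in HT and 0.1% for female against male. For the difference of effects between genotypes it was 0% with fluoxetine and 2.8% with lithium. At an unadjusted p under 0.05, limma gave 6 markers for lithium in HT, 2 for genotype under lithium, 1 for genotype under fluoxetine and 1 for female against male, and 0 in the other 5. Over all genes tested, the share at that threshold was 16.9%, 15.4%, 12.6% and 6.18% in these 4 comparisons, so the last 3 counts of 29 are below the background and the first is near it. Both drugs are compared with the same vehicle libraries in each genotype, as are the genotype comparison under vehicle and the differences of effects.

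**Figure D5:**
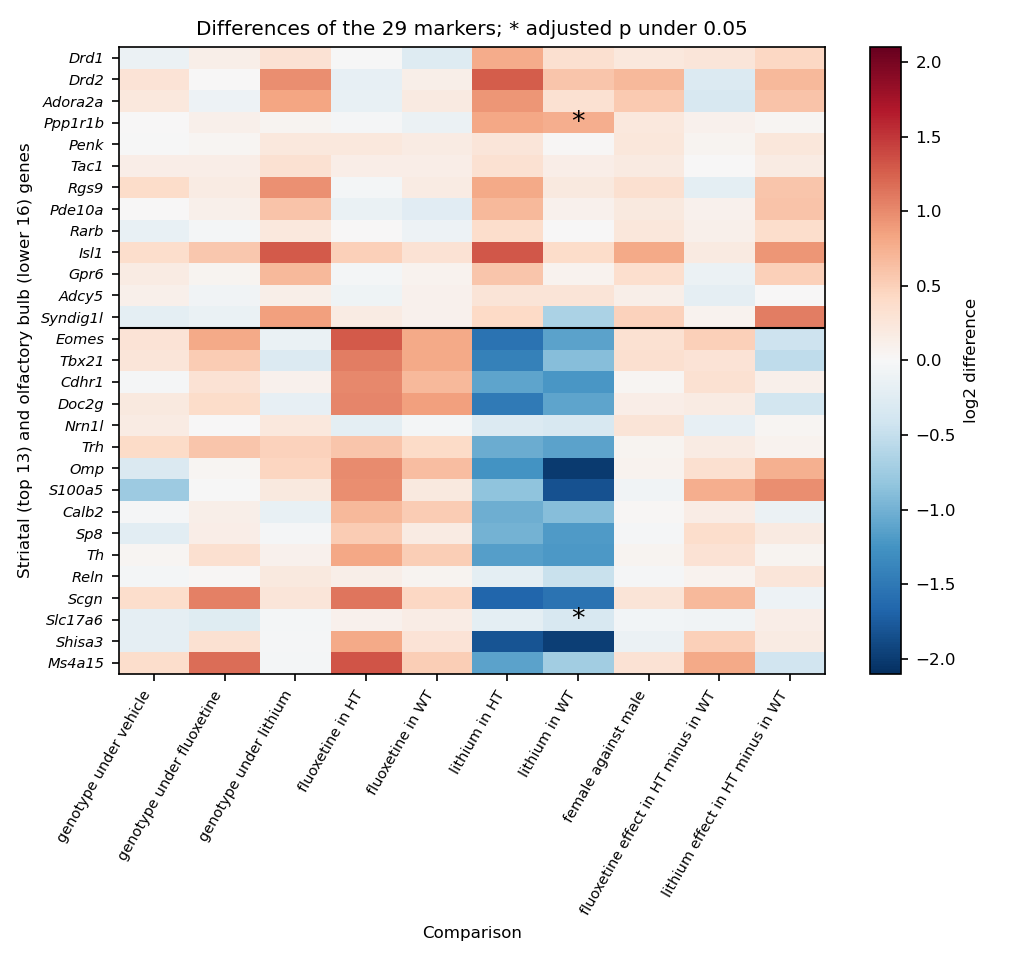
The log2 difference of each of the 29 genes (rows) in each of the 10 comparisons (columns), fitted with limma on log2(value + 1); a star marks an adjusted p under 0.05. The 2 stars are Ppp1r1b (0.77) and Slc17a6 (-0.34) in lithium against vehicle in WT, and the deep blue cells of the olfactory genes under lithium carry no other star.

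The lithium comparisons had the largest median differences of the olfactory genes among the 10, and single genes mostly stayed inside the spread. In HT the median log2 difference of the 16 olfactory genes was -1.12 and 16 of 16 were below 0; in WT it was -1.12 and 16 of 16. Over all genes tested the median was 0.00034 in HT and -0.018 in WT, with 50.1% and 46.7% above 0. The striatal genes had a median of 0.69 in HT, with 13 of 13 above 0, and 0.21 in WT, with 12 of 13 above 0 (Syndig1l was at -0.66). Because the genes of a tissue vary together, such counts do not add up as separate observations. In WT under lithium, where 36.1% of all genes tested were called, genes of other cells were called as well. Of 13 glial and vessel genes 4 rose, among them the myelin gene Mog (0.54), and 1 fell (Aqp4, -0.43). Of 14 pyramidal neuron genes 4 rose (Slc17a7 by 0.25) and 3 fell (Rorb, -0.28). Of 10 interneuron genes 2 rose (Pvalb by 0.63) and 1 fell (Adarb2, -0.65). The part of these other cells in the marker values was not tested. Fluoxetine gave olfactory medians of 0.89 in HT and 0.47 in WT, with 15 of 16 genes above 0 in each, and striatal medians of -0.02 and 0.10. Single libraries moved several of these medians. Leaving out 1 library, the olfactory median for lithium in WT ran from -1.65 (without WT lithium male 3) to -0.72 (WT lithium male 2) and the striatal one from 0.033 (WT lithium male 3) to 0.34 (WT vehicle male 6). For fluoxetine in WT the olfactory median ran from 0.13 (WT fluoxetine male 1) to 0.82 (WT fluoxetine female 5), and the striatal medians for fluoxetine crossed 0 in both genotypes (-0.14 to 0.12 in HT, -0.10 to 0.22 in WT). The genotype medians, HT minus WT, were 0.11 striatal and 0.01 olfactory under vehicle, 0.05 and 0.31 under fluoxetine, and 0.60 and 0.04 under lithium. Under fluoxetine the olfactory one ran from 0.00026 (without WT fluoxetine female 5) to 0.64 (WT fluoxetine male 1) and the striatal one from -0.07 (HT fluoxetine female 2) to 0.22 (WT fluoxetine female 3). The olfactory ones under vehicle (-0.20 to 0.24) and lithium (-0.26 to 0.61) crossed 0 as well. Female minus male gave 0.24 striatal, with 13 of 13 above 0, and 0.05 olfactory (-0.05 to 0.21 leaving out 1 library).

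Ppp1r1b was called higher in lithium than in vehicle libraries of WT, and the direction turned within the library set that holds all lithium libraries (log2 difference -0.11, adjusted p = 0.95, limma). WT lithium females read 1903, 2514, 2830, 3372 and 4276 and WT lithium males 3286, 3423 and 3615. WT vehicle females had a lowest value of 1083, a median of 1656 and a highest of 3368, and WT vehicle males 1121, 1367 and 6822. The vehicle libraries overlapped the lithium ones through their upper values, WT vehicle males 6 and 7 among them. Within the set these 2 males had 6537 and 4500 recovered reads, against 3651, 4201 and 3962 in WT lithium males. WT vehicle females 6, 7 and 8 had 3335, 1386 and 2461, against 2236 to 5440 in WT lithium females. The males were thus lower under lithium there and the females overlapped. Over all libraries the log2 difference was 0.77 (SE 0.30, adjusted p = 0.042, limma). It was 0.56 with edgeR on recovered reads (adjusted p = 0.15) and with DESeq2 (adjusted p = 0.15), so the call ended with both tools. Leaving out 1 library at a time kept the call in 53 of 68 fits, with an adjusted p of 0.0081 to 0.084. It was lost without WT lithium females 1, 4 or 5, WT lithium males 1, 2 or 3, WT vehicle females 1, 3, 4 or 5, or WT vehicle males 1 to 5.

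In HT the same gene had a log2 difference of 0.81 (SE 0.285), with an adjusted p of 0.12 from limma. HT lithium females read 2372, 4006, 4685 and 5572 and males 2040, 2085, 2233, 3677 and 3940; HT vehicle females ran from 1213 to 5199 (median 1740) and males from 964 to 6074 (median 1507). All 9 HT lithium libraries lay above both vehicle medians, and 5 of 16 vehicle libraries lay above the lowest lithium value. Pde10a had the smallest p of the striatal genes in HT (0.69, adjusted p = 0.11, limma). It did not pass, nor did Drd1 (0.78, 0.17), Rgs9 (0.79, 0.23) or Adcy5 (0.28, 0.25). Without HT vehicle male 7, Ppp1r1b (0.94, adjusted p = 0.048) and Pde10a (0.81, adjusted p = 0.031) were called.

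Slc17a6 was called lower in lithium than in vehicle libraries of WT, and within the library set its sign turned too (0.055, adjusted p = 0.94, limma). Values were 404, 438, 453, 476 and 492 in females and 439, 509 and 566 in males under lithium, against a lowest of 477, a median of 521 and a highest of 959 in vehicle females and 394, 673 and 1054 in vehicle males. The ranges overlapped, and the highest vehicle values, 959 and 1054, were those of WT vehicle female 1 and male 5, each with an olfactory score of 3.21. The log2 difference was -0.34 (SE 0.12, adjusted p = 0.028, limma). The call was lost without WT lithium male 1 or 2, WT vehicle female 1 or WT vehicle male 5, with adjusted p of up to 0.11. HT libraries had a difference of -0.20, which was not called (adjusted p = 0.38). In WT, Omp had a log2 difference of -2.01 (adjusted p = 0.061, limma), Reln of -0.46 (0.082), Shisa3 of -1.98 (0.089) and Th of -1.21 (0.23), and none of these was called. For Omp, WT lithium libraries read 2.44, 3.96, 7.23, 7.39, 11.4, 13.4, 15.3 and 44.8, while WT vehicle females ran from 3.25 to 795 and WT vehicle males from 8.05 to 628. On recovered reads edgeR called 9 olfactory genes lower in that comparison (Th, S100a5, Trh, Scgn, Slc17a6, Eomes, Sp8, Shisa3 and Omp), where it called 18.9% of all genes lower. DESeq2 called 15 lower, all of the olfactory genes but Nrn1l, where it called 19.7% of all genes lower. Without WT vehicle male 6, limma called Adcy5, Shisa3 and Omp as well, 5 markers in all; without WT vehicle male 7 it called Reln, Shisa3 and Omp as well, and without WT lithium male 3 Reln, Shisa3 and Omp. Omp was also called without WT vehicle female 6, WT vehicle female 8 or WT vehicle male 4, with adjusted p of 0.0398 to 0.0448 (limma). The difference of the lithium effect between genotypes passed for none of the 29.

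The lithium values differed with the vehicle libraries compared. Within the set that holds all lithium libraries, 8 WT lithium libraries met 5 WT vehicle ones, and the olfactory median in WT became 0.50, with 13 of 16 genes above 0, and the striatal median -0.70, with 0 of 13 above 0. There 25 of the 29 genes had the opposite sign to the comparison over all libraries, and 0 markers were called, with 0.664% of all genes called. Those 5 vehicle libraries were 3 females and 2 males, with the sexes weighted equally in the fit. Mean striatal scores of WT in the set were 0.018 under lithium and 0.039 under vehicle in females, and 0.049 and 1.38 in males. Mean olfactory scores were -1.10 and -0.996 in females, and -0.96 and -2.41 in males. The differences thus lay mostly in males, against WT vehicle males 6 and 7. The olfactory scores of those 5 vehicle libraries were -2.51, -2.39, -2.30, -2.06 and 1.46, while the 10 WT vehicle libraries of the third set had a range of -1.73 to 3.21. In HT, 9 lithium and 6 vehicle libraries of that set gave an olfactory median of -0.77, with 0 of 16 above 0, and a striatal median of 0.39, with 13 of 13 above 0. No marker was called in HT either, at a smallest adjusted p of 0.45. Within that set under vehicle, genotype gave an olfactory median of 1.503 with 16 of 16 above 0 and a striatal median of -0.56 with 0 of 13 above 0, on 6 HT and 5 WT libraries, and 0 called. Of the 29 genes, 17 had the opposite sign to the vehicle genotype comparison over all libraries. Fluoxetine in HT within its set gave 0.11 olfactory and 0.09 striatal. For fluoxetine in WT, no set held both sides, so drug and set cannot be told apart there.

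The same comparisons were run without the 13 libraries that stood apart on the striatal score, which were picked on the markers themselves, so these values are a description. Of the HT lithium females only female 3 was left, with a striatal score of -0.23 and an olfactory score of -2.11. The sexes were weighted equally, so each value with HT lithium libraries below leans on that 1 library. The genotype difference under lithium in the striatal genes went from a median of 0.60 to -0.12, with 4 of 13 above 0. The difference of the lithium effect went from 0.50 to -0.05, and lithium in HT from 0.69 to 0.26. The female minus male median went from 0.24 to 0.05, with 9 of 13 above 0. The lithium medians of the olfactory genes became -2.09 in HT and -1.48 in WT. In WT, Ppp1r1b, Adcy5, Slc17a6 and Shisa3 were then called, 2 higher and 2 lower, with 36.9% of all genes called. HT vehicle male 7 alone moved the striatal median of the vehicle genotype comparison from 0.11 to 0.0067.

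Genes of the same cells that were not in the marker set varied with the scores. Of 24 further genes of striatal projection neurons, 19 had an r above 0.5 with the striatal score (median r 0.80), against 2.27% of 17893 other genes tested. Among them were Pde1b (0.93), a calmodulin-dependent phosphodiesterase, and the retinoid receptor gene Rxrg (0.95). Below that bar were Meis2 (-0.27), Chrm4 (0.14), Foxp1 (0.26), Tmem158 (0.34) and Actn2 (0.37). With the olfactory score Meis2, which bulb interneurons also express, had an r of 0.96, Actn2 one of 0.53 and Foxp1 one of -0.66. Of 4 cholinergic genes, Chat, Slc5a7 and Slc18a3 had an r of 0.78, 0.78 and 0.75 with the striatal score, while Zic4 was at -0.22 with it and at 0.76 with the olfactory score. Of 15 further olfactory bulb genes, 11 had an r above 0.5 with the olfactory score (median 0.93), against 9.50% of the other genes. Kcng4 (-0.41), Vip (-0.29), Calca (0.23) and Trpc4 (0.43) did not. Genes of migrating neuroblasts followed as well, 8 of 11, including doublecortin (Dcx, 0.95), Dlx2 (0.95) and Sp9 (0.96). Tubb3 (0.12), Top2a (-0.30) and Mki67 (-0.20) did not. Of 10 genes of olfactory sensory neurons and ensheathing glia, Stoml3 (0.95), Prss56 (0.84) and Frzb (0.82) followed, and Cnga2 (-0.06), Cnga4 (-0.33), Rtp1 (-0.21), Gng8 (0.01) and Gng13 (-0.12) did not.

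In the tests of these further lists, most calls were again in lithium against vehicle in WT, where 36.1% of all genes tested were called with limma. Of the 24 striatal genes 2 rose and 4 fell, among them Strip2 (log2 difference 0.26) and Gpr149 (-0.83). Of the 15 bulb genes 1 rose and 4 fell, among them Dlx5 (-0.96), a homeobox gene of interneuron precursors, and Cpne4 (-0.62). Of the 11 neuroblast genes 1 rose (Tubb3, a neuronal tubulin, 0.32) and 5 fell, Dcx by 1.05 on the log2 scale. The median log2 differences were 0.09, -0.62 and -0.63. In HT under lithium, where 1.52% of all genes tested were called, limma called 0 of these 50 genes, with medians of 0.24, -0.55 and -0.46. The other comparisons held 5 calls over the 3 lists. Tmem158 (-0.22) and Etv1 (-0.22) were called for genotype under vehicle, where 15% of all genes were called. Kcng4 (-0.38) was called for genotype under fluoxetine (1.98% of all genes), and Foxp1 (-0.25) and Tubb3 (0.16) for fluoxetine in WT (5.43%). Each of these counts of 50 is near its share or below it.

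By the likeness rule, the genes outside the set with the highest r with the striatal score included Rxrg, Serpina9, Lrrc10b, Cd4, Sh3rf2, Six3, Pde1b, Ptprv and Prkch, at 0.95 down to 0.89. Those with the highest r with the olfactory score were Tshz1, Frmd7, Lgr5, Dlx1, Npr1, Pbx3, Ppm1j, Gng4, Shisa8 and Rab37, all at 0.98. In all, 407 other genes had an r above 0.5 with the striatal score and 124 one below -0.5. With the olfactory score there were 1700 and 1770. Among the genes called for lithium in HT, 30.4% had an r beyond 0.5 in either direction with the olfactory score, and 25.5% of those called for lithium in WT, against 19.5% of all genes tested. For fluoxetine in HT the share was 4.13% of 218 genes called, and for fluoxetine in WT 9.45%. For genotype it was 16.5% under vehicle, 16.9% under fluoxetine and 6.67% under lithium. It was 5.98% for the difference of the lithium effect and 11.1% of 18 genes for female against male. With the striatal score these shares ran from 0% (fluoxetine in HT) to 4.25% (genotype under vehicle), against 3.0% of all genes tested. The part that bulb or striatal RNA had in those calls was not tested.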

How the data were processed

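Stranded mRNA libraries were made with a TruSeq kit, per the labels' protocols. The authors deposited 1 table of a signal per gene and library: reads divided by 1 size factor of the library. Per the submitters' processing notes the tools included Salmon 0.11.2, R 3.6.0 and DESeq2 1.19.11 on GRCm38, without the role of each; annotation and strand setting are not given in these sources. In each library 100% of values were whole reads within 0.01 after rescaling, so reads were recovered for count tests.

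The test was limma 3.58.1 in R 4.3.3 with trend and robust shrinkage on log2(value + 1) of the deposited signal, with 12 group means in 1 fit and effects averaged over the sexes. It took the place of a count test because the values are normalised. A mean value of 5 or more was required (17922 genes; 166 were below it), p was adjusted after Benjamini and Hochberg over all 17922, and folds of low genes are understated. The code was also run on simulated data, in which genes varied independently and with little spread. The markers do neither, so that run gives no check of the marker results. Alternatives were edgeR 4.0.16 and DESeq2 1.42.0 on recovered reads, other pseudocounts, filters and factors, a replicate block, fits within library sets, fits without libraries that stood apart, and fits leaving out each library. Sets came from average linkage on 1 minus r over 361 pseudogenes, stopped at 3.

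Symbols and positions are from GENCODE vM21 (18077 genes matched). Named genes are all 30 listed, up to 4 called genes per further list and comparison (smallest p first), and, for each tissue, the 10 other genes with a mean of at least 20 and the highest r with the score; other list genes are named with their r as examples chosen after the values were seen. The genes and lists were chosen with earlier results of these data known. No 2 libraries of a group were alike within sampling noise (chi-square per gene 3.80 or more). Some genes of the marker lists and of the likeness rule are not reported here by name.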

Additional observations from a re-analysis of the deposited data

Results flagged for a closer look

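In groups of 4 to 8 libraries, a library whose gap to the nearest other is a large share of the group's range was noted for both scores and each of the 29 genes on the log2 scale. Of 341 groups looked at, 36 held such a library; chance gives about 1 in 20, and genes of a tissue are not independent. 

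HT vehicle male 7 accounted for 12 of the 36. Its striatal score was 1.82, against -0.79 to -0.34 in the other HT vehicle males. It read 739 for Drd1, 477 for Drd2, 792 for Adora2a, 6074 for Ppp1r1b, 3431 for Penk and 958 for Tac1. It also read 2098 for Rgs9, 6309 for Pde10a, 614 for Rarb, 64.2 for Isl1 and 282 for Gpr6. None of the other 7 HT vehicle males exceeded 66.2 for Drd2 or 2.63 for Isl1.

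WT fluoxetine female 3 had a striatal score of 1.27, with the other 4 at -0.67 to -0.18. It read 322 for Drd2, 574 for Adora2a, 4044 for Pde10a and 140.3 for Gpr6.

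HT fluoxetine male 1 was the low library of a group that was otherwise high in olfactory genes, with 11 of the 36. Its olfactory score was -1.50, against 0.80 to 1.63. It read 9.47 for Eomes, 1.05 for Tbx21, 288 for Cdhr1, 142 for Doc2g and 36.8 for Trh. It also read 127 for Sp8, 81.0 for Th, 22.1 for Scgn, 52.6 for Shisa3 and 5.26 for Ms4a15.

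WT lithium female 1 was low for Eomes (2.71) and Ms4a15 (3.61). HT vehicle male 5 was high for Omp (404), Reln (6464) and Slc17a6 (774.5). Single cases were Reln at 3322 in HT lithium female 2, Slc17a6 at 959 in WT vehicle female 1 and Nrn1l at 4.32 in HT vehicle male 2, the last a low value.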

How the results depend on the processing

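Pseudocounts of 0.5 and 5, no filter, a mean of at least 20, no trend or robust shrinkage and TMM factors left the marker calls at 2 for lithium in WT, the same 2 genes, and at 0 in the other 9 comparisons. The marker count for lithium in WT was 9 with edgeR, 15 with DESeq2, 4 without the 13 libraries that stood apart on the striatal score and 0 within the library set. It was 0 to 5 leaving out 1 library, lowest without WT lithium male 1 or 2, WT vehicle female 1 or WT vehicle male 5, and highest without WT vehicle male 6 or 7. For lithium in HT it was 0 to 2, with 2 without HT vehicle male 7. The replicate block gave 8 markers for lithium in WT and 8 for lithium in HT. Replicate numbers do not pair the samples (69 same-number pairs, r from -0.236 to 0.506, 19 above 0.1, 12 pairs best with their own number). Vehicle libraries numbered 6 to 8 all lay in the set that holds all lithium libraries, and those numbered 1 to 5 in the other sets. No drug library has a number above 5, so the block compares lithium mainly with vehicle libraries of the other sets. Within the set, lithium in WT turned sign for 25 of 29 markers, 12 of 13 striatal and 13 of 16 olfactory, among them Slc17a6 (0.055), Ppp1r1b (-0.11), Adcy5 (-0.26), Shisa3 (0.48) and Th (0.63). The male side of that fit compared 3 WT lithium with 2 WT vehicle libraries. The cause of these changes was not tested. Scores with genes scaled to unit SD, with genes of a mean of at least 50 or with a pseudocount of 5 had an r of at least 0.996 with those used, and 11 to 14 libraries then stood apart on the striatal score. Depth limits the low genes: Isl1 was at 0 reads in 21 libraries and S100a5 in 30, where a level under 3 reads was not detectable.

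The count of all genes called, from which the background shares come, moved by more than 1.5 times in these cases. Within a set, genotype under vehicle went from 2680 to 96, genotype under lithium from 450 to 805, fluoxetine in HT from 218 to 30, lithium in HT from 273 to 29, lithium in WT from 6478 to 119 and the difference of the lithium effect from 502 to 0. Without the 13 libraries, genotype under fluoxetine went from 355 to 203, genotype under lithium to 157, fluoxetine in HT to 36 and lithium in HT to 46. DESeq2 gave 370 for fluoxetine in HT, 449 for lithium in HT, 10 for the difference of the fluoxetine effect (0 with limma, 2187 at an unadjusted p under 0.05, 1 with edgeR) and 1021 for that of lithium. The replicate block gave 398 for fluoxetine in HT, 4003 for fluoxetine in WT (974 without it), 3746 for lithium in HT, and 8 and 1150 for the differences of the fluoxetine and lithium effects. With both scores as covariates, a fit chosen after seeing the data, the counts were 909 for genotype under fluoxetine, 877 for genotype under lithium, 418 for fluoxetine in HT, 1940 for fluoxetine in WT, 84 for lithium in HT, 37 for the difference of the fluoxetine effect and 2198 for that of lithium.

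Leaving out 1 library at a time, the counts were 1730 (without WT vehicle male 5) to 4155 (WT vehicle male 6) for genotype under vehicle, 276 to 448 for genotype under fluoxetine and 170 (WT lithium male 2) to 594 for genotype under lithium. They were 111 (HT fluoxetine female 2) to 432 (HT vehicle female 4) for fluoxetine in HT, 338 (WT fluoxetine female 2) to 1969 (WT vehicle male 6) for fluoxetine in WT and 61 (HT lithium female 3) to 379 for lithium in HT. For lithium in WT they were 4961 to 7340 and for female against male 16 to 21. For the differences of effects they were 0 to 8 with fluoxetine and 0 (WT lithium male 2) to 1492 (WT vehicle male 6) with lithium. No fit within a set was possible for fluoxetine in WT or for the difference of the fluoxetine effect.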

Other observations

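Genes of cortical neurons had mixed relations to the olfactory score (r of group-centred values, n = 68). Of 14 genes of cortical pyramidal neurons, 7 had an r below -0.5 with it and 1 above 0.5, the former against 9.89% of 17893 other genes; the vesicular glutamate transporter gene Slc17a7 was at -0.76 and the transcription factor gene Tbr1 at -0.74, while Cux1 was at 0.74. Of 10 interneuron genes, 3 lay below -0.5, Lhx6 (-0.83), Sst (-0.78) and Pvalb (-0.73), and 3 above 0.5, Adarb2 (0.90) and the GABA-synthesis genes Gad1 (0.94) and Gad2 (0.71), which bulb interneurons also express. Of 13 glial and vessel genes, 4 had an r above 0.5 with the striatal score; the myelin genes Mbp, Mog and Mag had an r of 0.74, 0.74 and 0.70. Of 7 choroid plexus and ependyma genes, Clic6 was above 0.5 with the striatal score (0.75) and Foxj1 with the olfactory score (0.56); Ttr ran from 0 to 5536 and had an r of 0.0051 and -0.013. The proliferation genes Top2a (0.65) and Mki67 (0.62), listed with the neuroblast genes, followed the striatal score and not the olfactory one (-0.30 and -0.20).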
